A study of Homo sapiens with 4 samples.

Results

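A single gene row of a ribosome profiling table was followed here, the row placed on chromosome 13 from 95019835 to 95301451 and annotated ABCC4 (identifier ENSG00000125257.16). It was chosen by its place and because its counts differed between the media, so its own contrast is described and not tested, and it is 1 of 78724 rows in all. Ribosome-protected RNA fragments (footprints) had been sequenced from A375, an established human melanoma cell line, after 48 h in control medium or in medium lacking arginine, with 2 libraries per group and no other genotype or agent in either group. Cells were kept in DMEM with serum, and the arginine-free medium was built on RPMI 1640 without amino acids, with all amino acids but arginine added back. The labels do not say how the control medium was composed, nor that the replicates are separate cultures, so the spread between libraries may be technical.

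ABCC4 (also MRP4) is an ATP-driven pump of the cell membrane that exports cyclic nucleotides, prostaglandins and some drugs. The coordinates of the table are those of GRCh38, on which the row's ends coincide with RefSeq ABCC4, while the submitters' processing notes name GRCh37 for the reads. If the reads lie on GRCh37, the span of the row holds DCT instead, together with TGDS and GPR180. This is an inference from place only. DCT (dopachrome tautomerase, also TYRP2) is an enzyme of the melanosome, the organelle in which melanocytes make melanin. With its relatives TYR and TYRP1 it forms the core of the melanin pathway: TYR oxidises tyrosine, DCT converts dopachrome to the carboxylated indole DHICA, and TYRP1 acts further along. All of them are classic targets of MITF, the transcription factor that defines the melanocyte lineage, through a promoter element called the M-box. TGDS is named as a sugar nucleotide dehydratase and GPR180 is a membrane protein.

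The promoters are shown because those of DCT and TYRP1 share the letters of the M-box and that of ABCC4 does not hold them. They come from RefSeq (GRCh38.p14), read on each gene's own strand up to the base before the annotated start, with 250 bases each. Capitals mark the letters TCATGTGCT, the M-box without its first letters, or their reverse complement AGCACATGA.

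DCT (chr13:94479683-94479932, minus strand): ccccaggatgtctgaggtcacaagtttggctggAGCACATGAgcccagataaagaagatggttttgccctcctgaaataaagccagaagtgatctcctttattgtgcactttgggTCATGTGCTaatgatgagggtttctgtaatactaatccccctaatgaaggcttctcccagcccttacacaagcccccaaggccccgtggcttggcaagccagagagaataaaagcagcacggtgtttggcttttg
TYRP1 (chr9:12693135-12693384, plus strand): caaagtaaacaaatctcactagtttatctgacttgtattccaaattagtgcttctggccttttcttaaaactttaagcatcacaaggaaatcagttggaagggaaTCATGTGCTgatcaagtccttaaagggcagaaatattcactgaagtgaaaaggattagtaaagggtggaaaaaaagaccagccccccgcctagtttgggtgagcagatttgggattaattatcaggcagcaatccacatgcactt
ABCC4 (chr13:95301452-95301701, minus strand): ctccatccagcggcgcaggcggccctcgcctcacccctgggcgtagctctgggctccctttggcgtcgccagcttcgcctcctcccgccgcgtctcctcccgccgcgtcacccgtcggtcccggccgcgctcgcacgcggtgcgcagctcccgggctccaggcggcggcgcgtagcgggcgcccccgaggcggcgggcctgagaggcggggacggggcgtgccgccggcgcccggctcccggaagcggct

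DCT held the 9 letters at 2 places, starting at positions -217 and -135, one on each strand, where -1 is the base just before the annotated start. TYRP1 held them once, at -145, and TYR once, at -105. ABCC4, TGDS and GPR180 did not hold them in this window, nor did the other annotated DCT start farther out. Both strands were searched in 35116 annotated promoters of the same length, and 64 of these (0.182%) held the 9 letters. The shorter core CATGTG, which lies within the 9 letters, was in 9.42% of promoters. Other lengths were searched too: GTCATGTG was in 0.792%, and the 9 letters with a G before them in 0.0655%. Of 35 pigment and melanosome genes with a promoter in the table, 5 held the 9 letters in at least 1 promoter (TYR, TYRP1, DCT, GPR143 and GPNMB). These 35 genes have 68 promoters in all, of which 5 held them, the unit that the 0.182% counts. TYR, TYRP1 and DCT were known targets through this element beforehand, so the count is not a test and supports nothing about the list. The core CATGTG was in at least 1 promoter of 14 of the 35 genes, and not in those of MLANA or MFSD12. That count is of genes, several of which have more than 1 promoter, so it cannot be set against the 9.42% of promoters. A match is a string of letters and not a measured binding site, and the footprint data carry no promoter readout.

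The row held many footprints in control medium and few without arginine. It had 78 and 188 reads in control replicates 1 and 2, and 19 and 11 in arginine-free replicates 1 and 2. Both control libraries were high and both arginine-free libraries low, and the groups did not overlap. In CPM (the row's count relative to the total of the tested rows, scaled by the library's TMM factor) the row stood at 735.1 and 964.2 in control and at 82.3 and 69.1 in arginine-free medium. The means were 850.0 ± 162 and 75.7 ± 9.33 CPM (SD, n = 2 each). Control libraries differed from each other 1.31-fold and arginine-free libraries 1.19-fold, while the lower control library was 8.93-fold above the higher arginine-free one.

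**Figure D1:**
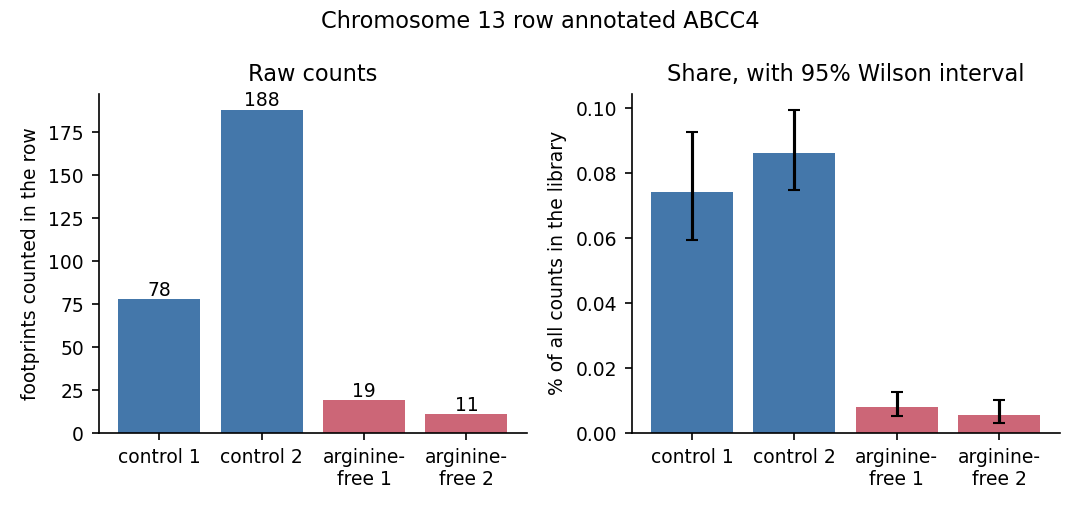
Footprints counted in the chromosome 13 row annotated ABCC4, as raw counts (left) and as a percentage of all counts in the library (right), for each of the 4 libraries; bars are single libraries and error bars are 95% Wilson intervals for counting error. The control libraries hold 78 and 188 reads and the arginine-free libraries 19 and 11, and the intervals of the share do not meet between the media.

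As a share of all counts, the row took 0.0743% of control replicate 1 (95% Wilson interval 0.0595 to 0.0927) and 0.0862% of control replicate 2 (0.0748 to 0.0995). It took 0.00809% of arginine-free replicate 1 (0.00518 to 0.0126) and 0.00573% of arginine-free replicate 2 (0.0032 to 0.0103). Summed over libraries these were 266 reads in control and 30 in arginine-free medium, an 11.7-fold lower share with an exact 95% counting interval from 8.02 to 17.7. Such intervals cover counting error only, since amplified fragments without molecular identifiers are not independent molecules. Neither they nor the SE below allow for the choice of the row on this contrast, so they describe it and do not test it. The fitted log2 fold change was -3.47 (SE 0.28), or 11.1-fold lower. It stayed between -3.23 and -3.64 when any 1 library was left out.

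Of 2526 tested rows, 16.9% were called lower without arginine and 16% higher (edgeR's quasi-likelihood F test at an adjusted p under 0.05 after Benjamini and Hochberg). In 34.2% of tested rows both arginine-free libraries lay below both controls in CPM. The row was chosen on this contrast, so nothing is read from its place among these shares. In order of fitted change it was number 33 from the lowest among all tested rows and number 23 among 1652 protein-coding ones. The protein-coding rows next to it in that order were KTN1, SPCS2 and H2BC9 below, at log2 fold changes of -3.67, -3.66 and -3.51, and H3C1, GHR and TUBB4A above, at -3.41, -3.35 and -3.35. These neighbours differ from the row by less than its SE. Its mean level in control medium was above that of 92.9% of tested rows, and in arginine-free medium above that of 31.0%. In these bulk libraries fewer cells making a product and fewer footprints per cell cannot be told apart, and without RNA measurements of the same cells a change in mRNA cannot be told apart from one in its translation.

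**Figure D2:**
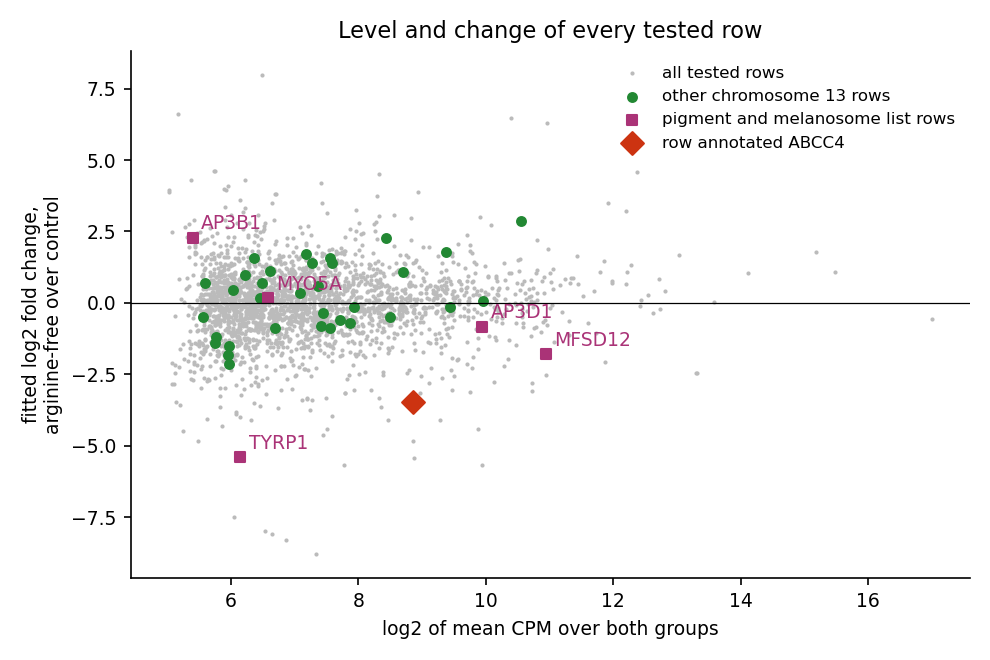
Each point is a tested row, with the log2 of its mean CPM on the x axis and the fitted log2 fold change of arginine-free over control on the y axis. The row annotated ABCC4 (diamond, -3.47) lies on the same side as TYRP1, MFSD12 and AP3D1 among the pigment and melanosome rows (squares), while AP3B1 and MYO5A lie above 0.

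The row is a sum over 32 merged exon blocks of the ABCC4 annotation, on the minus strand. They cover 6266 bases, 2.23% of a span of 281617, and reads between them were not counted. Per kilobase of these exons the row had 117 and 154 CPM in control and 13.1 and 11 CPM in arginine-free medium. If the reads belong to genes of another build, this length is not that of the sequence they cover, and the per-length level has no meaning for DCT. The counts per exon are not given in the table, so the reads could not be placed within the span.

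The surroundings of the row were nearly empty. Within 2 Mb of either end lay 67 other rows, of which 66 were at 0 in all 4 libraries. The exception, ENSG00000247400.7, held 2 and 1 reads in control and 6 and 2 in arginine-free medium. The 12 protein-coding rows of this window were all listed at 0: GPC6, DCT, TGDS, GPR180, SOX21, CLDN10, DZIP1, DNAJC3, UGGT2, HS6ST3, OXGR1 and MBNL2. DNAJC3 and UGGT2 serve protein folding in the endoplasmic reticulum, and MBNL2 is a splicing regulator. Whether A375 cells translate these genes was not tested. Both rows that overlap the span were also at 0. Before the row no read was found for 14.89 Mb, and the next row after it with 20 or more reads, RN7SL60P, began 3.37 Mb on.

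**Figure D3:**
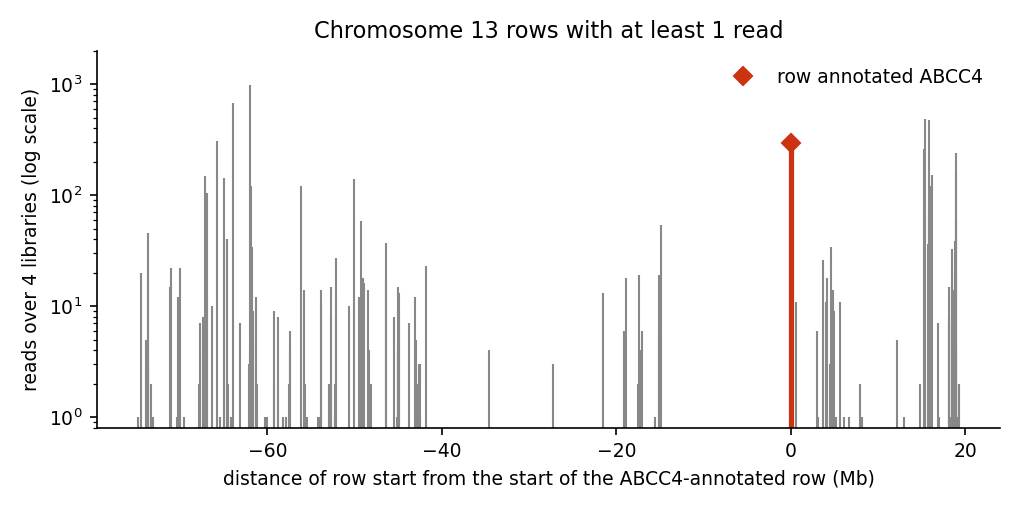
Reads summed over the 4 libraries (log scale) for each chromosome 13 row with at least 1 read, against the distance of its start from the start of the ABCC4-annotated row in Mb. The ABCC4-annotated row (diamond, 296 reads) stands alone between the rows 14.89 Mb before it and the sparse rows after it.

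Of the 10 protein-coding rows on each side of it, 2 of 20 held any read and 0 of 20 held 20 or more. Of all 18303 protein-coding rows, 28.2% held a read. Around TYRP1 the same count was 16 of 20 rows with any read and 12 of 20 with 20 or more, around MLANA 14 and 12, around MFSD12 15 and 9, and around AP3D1 17 and 14. Around the other pigment rows counted in this way it was lower, with any read in 7 of 20 rows around AP3B1, 6 around MYO5A and 3 around DCT. Of the pigment rows counted here, only TYRP1, MLANA, MFSD12 and AP3D1 lay where most neighbours held a read. The ABCC4 row stands in a stretch where the annotated genes are mostly without reads. Whether the difference in build accounts for this was not tested.

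The 3 genes named for the older build have rows of their own on GRCh38, before the ABCC4 row. DCT (94436811 to 94479682, 10 exon blocks) ends 540 kb before it, TGDS (94574054 to 94596152, 12 exon blocks) 424 kb and GPR180 (94601857 to 94634661, 9 exon blocks) 385 kb. All 3 rows were listed at 0 in the 4 libraries. At 0 reads a share of up to 28.57 CPM of all counts is allowed in control replicate 1 and up to 12.78 in arginine-free replicate 1, the shallowest and deepest libraries (3 counts in each). The DCT row was identified by its lower end and by the annotated start whose promoter is printed above, since RefSeq also carries a longer DCT model. From the first base of DCT to the last of GPR180 the 3 genes span 197851 bases, less than the 281617 of the ABCC4 row, so all of them could lie within it.

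Place alone does not say which of them gave the reads. If the 3 genes lay within the span with their GRCh38 spacing, the offset between the builds would be 583 to 667 kb. At 51.2% of the whole-base offsets in that range the exons of DCT would meet exons of the ABCC4 row over at least 30 bases. These bases were summed over exons, so they need not form a stretch as long as a footprint. The share was 37.7% for TGDS and 32.6% for GPR180. Every offset was weighed alike, so these shares are not odds of which gene gave the reads. No offset was chosen and no coordinate was converted. The reads are thus not shown to be from DCT, and only reads on the parts where exons meet would have been counted.

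On chromosome 13, 175 of 2000 rows held a read, among them 65 of 296 protein-coding ones. The ABCC4 row carried 10.2% of the chromosome's 2617 reads in control medium and 0.687% of its 4366 in arginine-free medium. By mean CPM it ranked number 2 of 34 tested rows of the chromosome in control and number 26 in arginine-free medium. Per kilobase of annotated exon, the ranks were 11 and 30. Of the other 33 tested rows, 4 (12.1%) were lower and 10 (30.3%) higher (edgeR, adjusted p under 0.05), against 16.9% and 16% of all tested rows, and their median log2 fold change was 0.17 against -0.03 over all tested rows. In 27.3% of these 33 rows both arginine-free libraries lay below both controls, and in 45.5% above, against 34.2% and 33.1% of all tested rows. The 4 lower calls were 2 with the replicate block, 0 with DESeq2, 1 without control replicate 1 or without arginine-free replicate 1, and 0 without control replicate 2. The 10 higher calls were 6 with DESeq2. The row at COL4A2, a basement membrane collagen, had 15 and 20 reads in control and 132 and 91 in arginine-free medium (log2 fold change 2.27, SE 0.28, edgeR adjusted p = 4.29e-05). The row at PAN3, part of a complex that trims mRNA tails, had 8 and 12 against 48 and 37 (1.70, SE 0.35, edgeR adjusted p = 0.00222). ENSG00000310266.1, which lies within COL4A2, had 34 and 55 against 219 and 176 (1.78, SE 0.23). The rows at COL4A2 and PAN3, and this one, were higher where the ABCC4 row was lower. The row at LOC124903151 had 45 and 60 against 105 and 768 (2.86, edgeR adjusted p = 0.00653), a call lost with DESeq2 (2.89, DESeq2 adjusted p = 0.152). Its fold change rests on arginine-free replicate 2, without which it was 0.42. Of the 4 lower rows, only ENSG00000298786.1 had a mean of at least 20 reads, with 29 and 42 against 30 and 21 (-0.87, SE 0.31, edgeR adjusted p = 0.0451). That call was lost with RLE factors (edgeR adjusted p = 0.0534), no filter on low counts (0.189), the replicate block (0.0651), DESeq2 (adjusted p = 0.286) and each library left out in turn (edgeR adjusted p from 0.0801 to 0.22). The reads of these rows too need not be those of the named genes.

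The pigment and melanosome list had 45 genes, of which 40 matched a row. Of these rows 28 were at 0 in all libraries, among them TYR, PMEL, MITF, SOX10, OCA2, GPR143 and DCT, and 5 passed the filter on low counts. In the test over all rows 3 of the 5 were lower, 1 was higher and 1 did not pass, where 16.9% of all tested rows were lower and 16% higher. The median log2 fold change of the 5 was -0.84 against -0.03 over all tested rows. TYRP1 passed the filter only through its control libraries and AP3B1 only through its arginine-free ones, so both had to differ, and the count and median of the 5 support nothing about the list. This list and its results were partly known when the row was chosen.

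TYRP1, the melanosome enzyme closest to DCT, had 16 and 25 reads in control and 1 and 0 in arginine-free medium. By total counts this is 54.2-fold lower (exact 95% interval 9.19 to 2191 for counting error), with an edgeR adjusted p of 0.000104 for a row that was tested only because of its control reads. All but 1 of its reads were in the control libraries. MLANA, the melanosome protein MART-1, had 6 and 10 reads against 0 and 2 and did not pass the filter, 10.6-fold lower by total counts with an interval from 2.49 to 94.77 for counting error. SLC45A2, a melanosome transporter, held 2 reads, both in control replicate 2. The other untested rows of the list with reads did not share 1 direction. DTNBP1 had 3 and 3 reads in control against 0 and 1 in arginine-free medium, and LYST 4 and 4 against 4 and 3. HPS5 had 2 and 5 against 3 and 3, EDNRB 0 and 1 against 2 and 3, and ERBB3 0 and 2 against 1 and 3.

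MFSD12, which is needed for cysteine import into melanosomes, had 370 and 511 reads in control and 175 and 159 in arginine-free medium (log2 fold change -1.80, SE 0.25, edgeR adjusted p = 9.1e-05). AP3D1, a subunit of the AP-3 coat that sorts cargo to melanosomes and lysosomes, had 142 and 231 against 138 and 130 (-0.84, SE 0.23, edgeR adjusted p = 0.0115). Both fell, but AP3D1 did not pass without control replicate 1 (edgeR adjusted p = 0.109), without arginine-free replicate 1 (0.0594) or with DESeq2 (0.076). The row at AP3B1, another AP-3 subunit, had 2 and 2 reads against 12 and 14 (2.28, SE 0.70, edgeR adjusted p = 0.0225), a call lost without control replicate 1, control replicate 2 or arginine-free replicate 2 (edgeR adjusted p = 0.0696, 0.277 and 0.144). It is the only higher call of the list, and the row was not tested or had no adjusted p with DESeq2, with at least 20 counts in both libraries of a group and without mitochondrial rows. The row at MYO5A, the motor that carries melanosomes, had 7 and 21 against 22 and 18 and did not pass (edgeR adjusted p = 0.77). Around AP3B1 and MYO5A, 7 and 6 of the 20 surrounding protein-coding rows held any read.

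Read as ABCC4 itself, the row belongs to the ABCC family of transporters. All 12 family members matched a row, 4 of these were at 0 (ABCC3, ABCC11, ABCC12 and CFTR), and 4 besides ABCC4 were tested. Of those 4, 1 was lower, 0 were higher and 3 did not pass (edgeR, adjusted p under 0.05), where 16.9% of all tested rows were lower and 16% higher. Their median log2 fold change was -0.59, against -0.03 over all tested rows. With 4 rows, 1 call is near that background. The row at ABCC5, an exporter of cyclic nucleotides like ABCC4, had 29 and 41 reads in control and 26 and 20 in arginine-free medium (-1.0, SE 0.32, edgeR adjusted p = 0.0276). That call was lost with DESeq2 (adjusted p = 0.214), with no filter on low counts (edgeR adjusted p = 0.103), without control replicate 1 (0.159) and without arginine-free replicate 1 (0.0954). The row at ABCC9, a subunit of ATP-sensitive potassium channels, held 183 and 358 reads against 280 and 205 (-0.51, SE 0.21, edgeR adjusted p = 0.0762), and passed only where at least 20 counts were required in both libraries of a group (-0.66, edgeR adjusted p = 0.0171). The rows at ABCC6 and ABCC1 held 45 and 34 reads in all, with log2 fold changes of -0.67 (SE 0.46) and -0.33 (SE 0.59). From 4 to 7 of the 20 protein-coding rows around each of these 4 held a read. As with every row here, whether the reads are those of the named gene was not tested.

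The rows whose pattern over the 4 libraries was most like that of the ABCC4 row were found by the root mean square difference of log2 CPM after each row's mean was taken off. Over the 2525 other tested rows, each with at least 20 reads in all, the median difference was 1.66. The nearest 8 lay between 0.09 and 0.26, and the next one was also at 0.26, so the border of this set is arbitrary. NDC80, a kinetochore protein, was nearest with 28 and 59 reads in control and 5 and 3 in arginine-free medium. HAUS5, of the complex that multiplies spindle microtubules, had 31 and 84 against 6 and 3. H2BC9, a replication-dependent histone H2B whose near-identical copies make single values uncertain, had 85 and 163 against 18 and 10. LAMA1, a laminin chain of basement membranes, had 304 and 617 against 87 and 53. The others were HMCN1, ENSG00000291336.1, TYRP1 and TUBB4A. The log2 values carry a prior count of 2, which shrinks the differences of rows with few reads: TYRP1 is among the 8 at a difference of 0.246 although its fitted log2 fold change is -5.39. NDC80, H2BC9, LAMA1, TYRP1 and TUBB4A lie where 14 to 18 of the 20 surrounding protein-coding rows held a read, and HAUS5 and HMCN1 where 8 did.

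**Figure D4:**
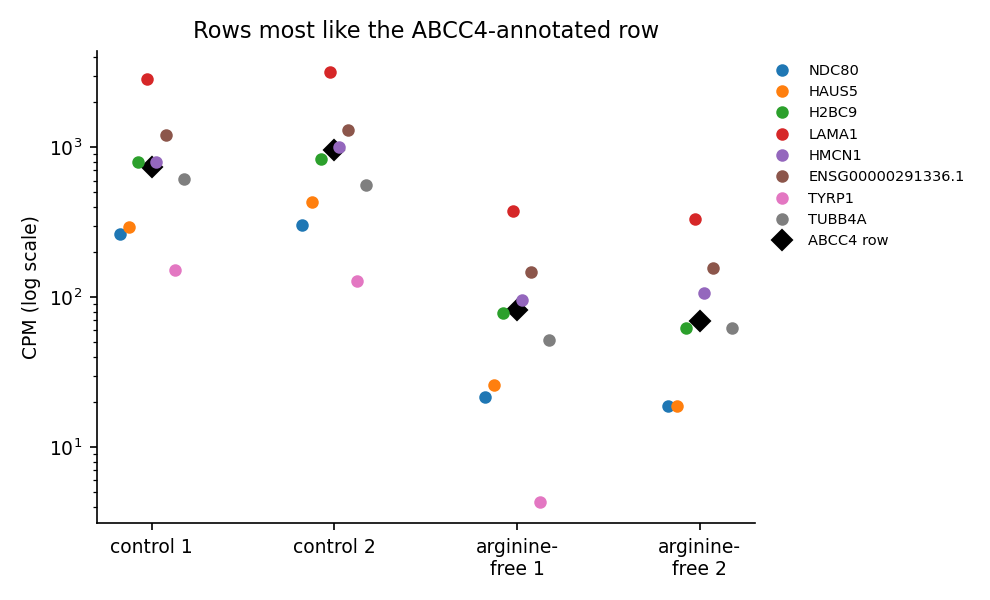
CPM (log scale) in each of the 4 libraries for the ABCC4-annotated row (black diamonds) and the 8 rows nearest to it by root mean square difference of centred log2 CPM; TYRP1 has 0 reads in arginine-free replicate 2 and no point there. All of these rows are high in both control libraries and low in both arginine-free ones, which follows from how they were chosen, at levels that differ between rows.

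Total counts ran from 105004 to 234766 per library, and 9443 rows held any read. Melanocyte markers could not serve as a check of the cell line, since 6 of 9 such rows were at 0. Of 11 markers of keratinocytes, epithelium, fibroblasts, leukocytes and endothelium 10 matched a row and 8 were at 0, with KRT14 at 0 and 3 reads in control and 6 and 1 in arginine-free medium and PECAM1 at 1 read in all. Rows of either kind may hold the reads of other genes, and their part in the result was not tested.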

How the data were processed

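The deposited values are raw counts per gene identifier; per the file headers, featureCounts 2.0.1 summed reads over exons of the GENCODE 47 basic annotation, ignoring strand and with a paired-read option although the labels give single reads. Reads from overlapping or antisense genes therefore cannot be told apart. GRCh37 (hg19) is the build in the submitters' processing notes, beside the tools TopHat2, Bowtie2 2.5.2 and cutadapt. Groups and replicates came from sample titles. Rows were named by place against RefSeq GRCh38.p14 by mutual best match (shared bases over joint bases at least 0.5 with a common end, otherwise 0.75), which named 38563 of 78724 rows. Tests used edgeR 4.0.16 (R 4.3.3) on all 4 libraries with TMM factors, filterByExpr, the quasi-likelihood test and Benjamini-Hochberg adjustment over 2526 rows. Each SE is the size of the log2 fold change divided by the root of its F statistic. Alternatives included DESeq2 1.42.0. The test was tried on simulated data. The member, the lists and the rules for named rows (likeness, place, list membership, order of change) were chosen with earlier results of these data known. Counts of lower or higher rows on chromosome 13 and in the ABCC family leave the ABCC4 row out. The deviations of same-numbered libraries from their group means had a correlation of -0.053. With 2 libraries per group and few reads in many rows, this cannot show that pairing is absent. Replicate numbers were not taken as pairs in the main fit, and a fit with a replicate block is given below.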

Additional observations from a re-analysis of the deposited data

How the results depend on the processing

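The log2 fold change of the ABCC4-named row, -3.47, stayed between -3.38 and -3.62 under the alternative factors, filters, DESeq2 and the replicate block (-3.44). Leaving out 1 library gave -3.23 (without control replicate 2) to -3.64. Over all tested rows, 428 lower and 405 higher became 189 and 193 with DESeq2, and 372 and 354 with the replicate block. Leaving out 1 library gave 243 to 389 lower, fewest without control replicate 2, and 270 to 418 higher. On chromosome 13, 4 lower rows became 1 with at least 20 counts in both libraries of a group, 0 with DESeq2, 2 with the replicate block, and 0 to 4 with 1 library left out, while 10 higher rows became 6 with DESeq2. In the pigment list 3 lower rows became 2 to 4 over the alternatives, and the 1 higher row became 0 with at least 20 counts in both libraries of a group, with DESeq2, without mitochondrial rows and in some fits leaving out 1 library (0 to 1). In the ABCC family the 1 lower row became 0 with no filter on low counts, 2 with at least 20 counts in both libraries of a group, 0 with DESeq2 and 0 to 1 with 1 library left out. The cause was not tested. Of 244 values for 21 named rows, 223 had the same call as reported, 20 lost it, 1 gained one and 0 had a call in the other direction. The sign of rows without a call was less stable. MYO5A went from 0.17 to -0.06 without control replicate 1. ABCC1 went from -0.33 to 0.29 without control replicate 2 and to 0.35 without arginine-free replicate 1. The row's arginine-free values rest on 19 and 11 reads. For a single value, exact permutation of 2 against 2 libraries (two-sided) gives a p of 33.3% at the least.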
